A study of Mus musculus with 6 samples.

Results

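The genes examined here are 7 of the 24532 genes in the deposited table that mark the loop of Henle and the distal tubule of the nephron. They were taken by symbol, as the rows named Umod, Slc12a1, Bsnd, Slc12a3, Calb1, Trpm6 and Egf, and all 7 rows were found. RNA-seq was performed on kidney and ureter of newborn mice (postnatal day 1, PN1) to ask which genes depend on Ahnak, a large scaffold protein linked to calcium channels. The groups compared were Ahnak KO kidney (2 libraries), WT kidney (2 libraries), Ahnak KO ureter (1 library) and WT ureter (1 library). Ahnak KO mice carry a disruption of exon 5 of Ahnak, and WT mice carry the intact gene. RNA was extracted, per the methods, from 2 to 4 organs of a kind, and the number of organs or mice behind each library is not given in the sources used here. The methods call the replicates biological, and p-values measure the spread between these libraries. Strain was not given. The table columns of Ahnak KO kidney 2 and the Ahnak KO ureter end in the same numbers, as do those of WT kidney 2 and the WT ureter, so these libraries may come from the same mice. The sample titles of both ureter libraries carry the word kidney, whereas their source names and table columns read ureter.

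Urine leaves the proximal tubule and enters the loop of Henle, whose thick ascending limb reabsorbs salt without water and so builds the medullary gradient that concentrates urine. The distal convoluted tubule and the connecting tubule then fine-tune sodium, calcium and magnesium. In the newborn mouse new nephrons still form, and the loop and the distal tubule keep maturing after birth. The ureter carries urine only and is built of urothelium and smooth muscle, with no nephron segments. Umod encodes uromodulin, the abundant urinary glycoprotein of the thick ascending limb. Slc12a1 encodes the furosemide-sensitive sodium-potassium-chloride cotransporter of the same segment, and Bsnd encodes barttin, a membrane protein that the thick ascending limb needs for chloride reabsorption. Slc12a3 encodes the thiazide-sensitive sodium-chloride cotransporter of the distal convoluted tubule. Calb1 encodes calbindin, a cytosolic calcium buffer, Trpm6 encodes the magnesium channel of that segment, and Egf encodes the precursor of epidermal growth factor, which the distal nephron makes.

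In the GRCm38 annotation (GENCODE M21) all 7 are protein-coding genes and the positions are those of the whole gene, exons, introns and untranslated regions included. Umod lies at chr7:119462711-119479282 on the minus strand and Slc12a1 at chr2:125152505-125230002 on the plus strand. Bsnd lies at chr4:106483456-106492283 on the minus strand, and Calb1, on the same chromosome, at chr4:15881264-15908064 on the plus strand. Slc12a3 lies at chr8:94329201-94366214 and Trpm6 at chr19:18749983-18892511, both on the plus strand. Egf lies at chr3:129677565-129755316 on the minus strand. RefSeq promoter windows (GRCm38.p6) matched 5 of the 7 genes in 6 windows, because Egf has 2. Bsnd and Calb1 were not matched. The 250 bases before each annotated start were searched on both strands for the CCAAT box (CCAAT) and for the TATA box (TATAAA). Both are general promoter elements, and they do not overlap each other in these windows. The promoters of 3 genes that the ureter libraries listed at 0 are shown with the matches in capitals, each ending before the first annotated base of the gene.
Umod, chr7:119479283-119479512, minus strand: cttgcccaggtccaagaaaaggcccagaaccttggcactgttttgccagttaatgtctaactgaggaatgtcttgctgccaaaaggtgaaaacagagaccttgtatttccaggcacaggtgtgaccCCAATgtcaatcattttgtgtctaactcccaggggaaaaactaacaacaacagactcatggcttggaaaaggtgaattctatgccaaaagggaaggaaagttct
Slc12a1, chr2:125152350-125152504, plus strand: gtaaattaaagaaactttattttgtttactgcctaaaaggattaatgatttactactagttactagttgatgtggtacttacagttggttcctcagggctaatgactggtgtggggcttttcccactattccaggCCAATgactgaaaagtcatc
Slc12a3, chr8:94328958-94329200, plus strand: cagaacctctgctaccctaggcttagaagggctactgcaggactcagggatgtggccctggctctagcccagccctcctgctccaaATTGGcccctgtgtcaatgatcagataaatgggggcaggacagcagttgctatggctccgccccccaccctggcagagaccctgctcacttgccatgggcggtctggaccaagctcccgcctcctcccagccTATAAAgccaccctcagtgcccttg
The CCAAT box of Umod began 124 bases before the RefSeq start, and that of Slc12a1 115 bases before it. A second match in the Slc12a1 window, 75 bases before the RefSeq start, lies within the annotated gene and is not shown. Slc12a3 held the CCAAT box on the opposite strand, read as ATTGG, 164 bases before the start, and a TATA box 32 bases before it. The CCAAT letters were found in 3 of the 6 windows of these genes and in 33.8% of all 32851 windows, and the TATA box in 1 of the 6 and in 12.4% of all. The Trpm6 window and both Egf windows held neither. A match is a description of the letters, and binding was not measured.

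The libraries held 36410246 to 66095616 deposited counts, the lowest total being that of the Ahnak KO ureter. Ahnak itself stood at 139 and 131 CPM (counts scaled to library size with TMM factors, which correct for library composition) in the Ahnak KO kidneys against 184 and 190 in the WT kidneys. In the ureter it stood at 631 CPM in the Ahnak KO library and at 728 in the WT library. Each Ahnak KO library thus lay below the WT libraries of its tissue, with the transcript present in all of them, and the kidney log2 difference of -0.47 was not called (adjusted p = 1.0 by edgeR). The summed level of 7 urothelium markers was 58.9 to 65.3 CPM in the kidneys and 6746 to 7287 CPM in the ureters. That of 8 proximal tubule markers was 1234 to 1879 CPM in the kidneys and 8.21 to 9.44 CPM in the ureters, and that of 6 podocyte markers 742 to 870.4 CPM and 109 to 137 CPM. The sums of 8 collecting duct markers overlapped between the tissues, at 521 to 647 CPM in the kidneys and 428 to 586 CPM in the ureters, and one of these markers, Aqp3, a water channel that urothelium also makes, was lower in kidney (log2 difference -2.52, adjusted p = 7.16e-05 by edgeR). In both ureters 4 of the 8 proximal tubule, 1 of the 6 podocyte and 4 of the 8 collecting duct markers had 0 counts, Slc34a1, Nphs1 and Aqp2 among them. Some libraries stood apart. Ahnak KO kidney 1 held 176348 counts of Xist, an RNA of the inactive X chromosome, and 0 counts of 4 genes of the Y chromosome. The other 5 libraries held 17 to 36 Xist counts and 1188 to 7062 counts of each of those Y-linked genes, so this library differs from them in sex. Ribosomal Rn45s took 8.06% of the counts in the Ahnak KO ureter and 0.496% to 0.632% in the other libraries. The number of counts was even for 54.0% to 60.3% of genes with 11 to 40 counts, and each library listed 6415 to 8530 genes at 0 but 153 to 273 genes at 1 count. Limits for a count of 0 and Clopper-Pearson intervals below cover counting error only. The edgeR intervals rest on the spread between libraries, which edgeR estimates for each gene in part from the other genes.

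All 7 genes were detected in every kidney library, and their levels spread over a wide range. Levels between genes were compared per transcript length, in TPM as deposited, a level corrected for transcript length. Calb1 was the highest, at 160, 206, 201 and 129 TPM in Ahnak KO kidneys 1 and 2 and WT kidneys 1 and 2. Slc12a1 followed at 147, 123, 125 and 174 TPM in the same libraries. Calb1 exceeded Slc12a1 in 3 of the 4 kidneys, WT kidney 2 being the exception, and the 2 ranges overlapped. The mean TPM was 174 ± 36.5 for Calb1 and 142 ± 23.5 for Slc12a1 (SD, n = 4). The difference between these means was not tested. Umod came next, at 84.8 and 91.8 TPM in the Ahnak KO kidneys and at 116 and 82.9 TPM in the WT kidneys, with a mean of 93.9 ± 15.4 TPM (SD, n = 4). Slc12a3 stood at 45.7, 28.6, 31.8 and 49.6 TPM, a mean of 38.9 ± 10.3 TPM (SD, n = 4). Bsnd stood at 25.0, 16.5, 27.8 and 25.7 TPM, a mean of 23.8 ± 4.99 TPM (SD, n = 4). From Slc12a1 down to Bsnd the ranges of neighbours in this order did not overlap, so the cotransporter of the thick ascending limb was above uromodulin, uromodulin above the cotransporter of the distal convoluted tubule, and the latter above barttin in each of the 4 kidneys.

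The 2 genes tied to magnesium handling stood far lower. Trpm6 stood at 1.66, 2.24, 2.76 and 1.35 TPM (mean 2.0 ± 0.624, SD, n = 4) and Egf at 1.26, 1.3, 1.42 and 1.57 TPM (mean 1.39 ± 0.140, SD, n = 4). Their ranges overlapped, with Trpm6 above Egf in 3 of 4 kidneys and below it in WT kidney 2. The mean of Bsnd was 11.9 times that of Trpm6. In newborn kidney the other 5 genes thus stood at 16.5 TPM or more in each library, and Egf and Trpm6 at 2.76 TPM or less.

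**Figure D1:**
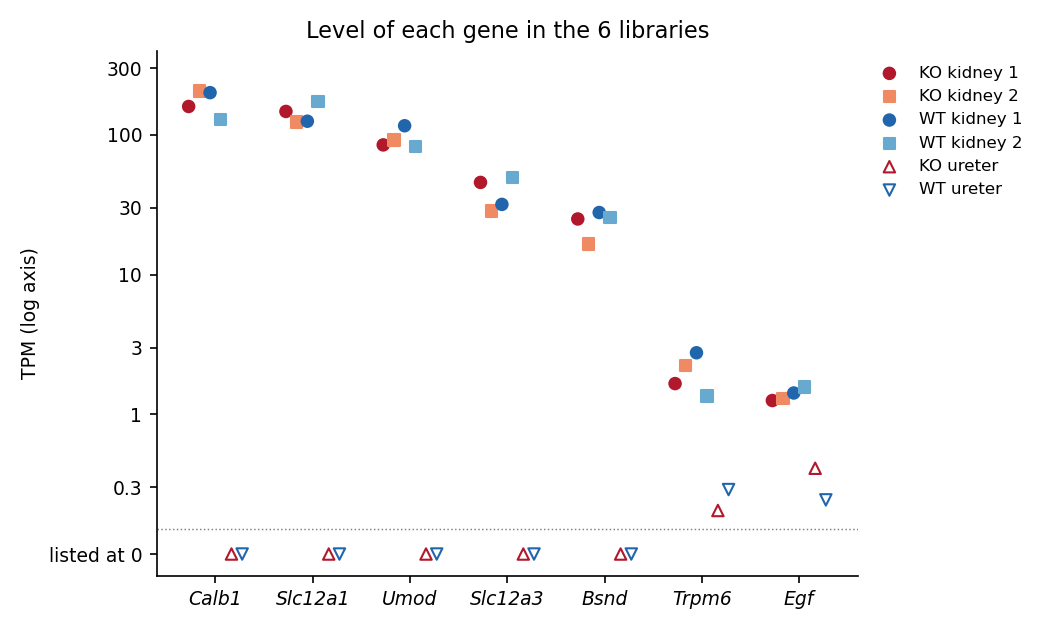
TPM of the 7 genes on a log axis in the 6 libraries, in the order of their kidney mean; filled symbols are kidney, open symbols ureter, and symbols below the dotted line are listed at 0. Calb1 and Slc12a1 lie between 123 and 206 TPM in kidney, Trpm6 and Egf between 1.26 and 2.76 TPM, and only Trpm6 and Egf are above 0 in the ureter libraries.

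The kidney and the ureter were then compared, to ask which of these genes were found in kidney alone. The kidney libraries also held collecting duct markers such as Aqp2, so a higher level in kidney does not place a gene in the nephron. All 7 genes were higher in kidney (edgeR quasi-likelihood test with tissue and genotype as terms, Benjamini-Hochberg over 16873 genes). Among all genes tested, 23.7% were called higher in kidney and 21.4% lower. Counts are given for Ahnak KO kidney 1, Ahnak KO kidney 2, WT kidney 1 and WT kidney 2, in this order. For Umod they were 6274, 6923, 10101 and 6158, and both ureters had 0. Slc12a1 had 19198, 16407, 19192 and 22823 counts in the kidneys and 0 in both ureters. Bsnd had 1907, 1284, 2492 and 1978 counts in the kidneys and 0 in both ureters. Every kidney library was high and every ureter library empty for Umod, Slc12a1 and Bsnd. Slc12a3 had 4234, 2705, 3462 and 4633 counts in the kidneys and 0 in both ureters. Calb1 had 12864, 16934, 18974 and 10426 counts in the kidneys and 0 in both ureters. The 5 genes at 0 compare with 5.39% of all tested genes that had at most 3 counts in both ureters.

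A count of 0 allows up to 3 counts in a library, which is 0.10 CPM in the Ahnak KO ureter and 0.0583 CPM in the WT ureter. Against the larger of these limits, Slc12a1 was at least 3095-fold higher in kidney (adjusted p = 1.59e-05) and Calb1 at least 2340.2-fold higher (adjusted p = 4.03e-05). Umod was at least 1159-fold higher (adjusted p = 2.24e-05), Slc12a3 at least 600.4-fold higher (adjusted p = 9.60e-05) and Bsnd at least 302-fold higher (adjusted p = 5.30e-05), all by edgeR. The order of these bounds follows the kidney levels and is no ranking of tissue difference.

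Trpm6 and Egf were the exceptions, with counts in both ureters. Trpm6 stood at 5.01, 7.09, 8.35 and 4.10 CPM in Ahnak KO kidneys 1 and 2 and WT kidneys 1 and 2, and at 0.868 CPM (26 counts) in the Ahnak KO ureter and 1.09 CPM (56 counts) in the WT ureter. The 4 kidneys lay above both ureters. The log2 difference, kidney over ureter, was 2.64 (SE 0.428, 95% interval 1.61 to 3.67, adjusted p = 0.00365 by edgeR), and on the log2(FPKM + 1) scale of limma, which understates low genes, 0.80. Egf stood at 2.77, 2.86, 3.13 and 3.22 CPM in the same kidneys, at 1.3 CPM (39 counts) in the Ahnak KO ureter and at 0.681 CPM (35 counts) in the WT ureter. The kidneys again lay above both ureters, with a log2 difference of 1.63 (SE 0.427, 95% interval 0.60 to 2.66, adjusted p = 0.0224 by edgeR), and 0.52 on the log2(FPKM + 1) scale. For Egf the call was lost when Ahnak KO kidney 2 (adjusted p = 0.0529), WT kidney 1 (0.0621), WT kidney 2 (0.0712) or the WT ureter (0.0872) was left out, and the log2 difference was 1.10 without the WT ureter. With kidney and ureter libraries that share column numbers taken as a block, a fit added after seeing the data that leaves 1 residual degree of freedom, the Egf call was lost (1.68, adjusted p = 0.114 by edgeR) and the other 6 calls were kept, that of Trpm6 at 2.45 (adjusted p = 0.0223 by edgeR). Within genotypes, on the log2(CPM + 0.5) scale, the Egf difference was 0.88 between the Ahnak KO tissues and 1.64 between the WT tissues, and that of Trpm6 was 2.24 and 2.01. Between the libraries that share column numbers alone, it was 0.90 and 1.66 for Egf and 2.47 and 1.53 for Trpm6. Without the Ahnak KO ureter, the library rich in Rn45s, all 7 calls remained, with log2 differences of 2.51 for Trpm6 (adjusted p = 0.0225) and 2.21 for Egf (adjusted p = 0.0153), a fit in which the lone ureter library is assumed to vary as the kidneys do. The same 7 calls remained without Ahnak KO kidney 1. In bulk tissue, fewer cells of a type and less RNA per cell cannot be told apart.

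The wider gene sets of these segments were described in the same comparison. Of 15 other loop of Henle genes 10 were called higher in kidney, 3 lower and 2 were not called, and the median log2 difference was 4.46, counting genes at or below 3 counts in both ureters at their bound, against 0.08 over all genes tested. Among the largest were the tight junction protein Cldn19 (at least 507-fold) and the potassium channel Kcnj1 (at least 397-fold), each at 0 counts in both ureters. Cldn19 stood at 43.3 to 60.3 CPM and Kcnj1 at 31.3 to 52.7 CPM in the kidneys. The 3 genes that were lower in kidney were Ckb (log2 difference -2.43, adjusted p = 0.000107), Mal (-2.21, adjusted p = 0.000132) and Aqp1 (-0.76, adjusted p = 0.00806). Ckb encodes brain-type creatine kinase, Mal a protein of apical membrane sorting and Aqp1 a water channel, and none of them is limited to the nephron. The Aqp1 call was lost without the Ahnak KO ureter, at a log2 difference of -0.54.

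Of 16 other distal tubule genes 11 were called higher in kidney and 0 lower, with a median log2 difference of 1.87. Unadjusted, 12 of the 16 had p under 0.05 in edgeR, against 52.8% of all genes tested. Tmem52b was at least 966-fold higher with 0 counts in both ureters. S100g, which encodes another calbindin, had 15651 to 28204 counts in the kidneys, 11 in the Ahnak KO ureter and 0 in the WT ureter (adjusted p = 0.000134). The potassium channel Kcnj16 had 4379 to 4687 counts in the kidneys and 11 and 0 in the Ahnak KO and WT ureters (adjusted p = 0.000159). At the other end of the list, none of the 3 smallest differences was called. The calcium pump Atp2b1 stood at -0.27 (SE 0.095, adjusted p = 0.0589 by edgeR). It was called lower in kidney with 10 counts required in every library (adjusted p = 0.0476), with tissue as the only term (0.0496) and by DESeq2 (0.00816), and changed sign under limma on log2(FPKM + 1) (0.029). No call was made for the magnesium-handling protein Cnnm2 at -0.40 (SE 0.173, adjusted p = 0.109 by edgeR). Pvalb, which encodes parvalbumin, had 0, 12, 14 and 10 counts in the 4 kidneys and 0 and 76 in the Ahnak KO and WT ureters (adjusted p = 0.583 by edgeR). Parvalbumin, a marker of the early distal convoluted tubule in the adult, therefore had at most 14 counts in these newborn kidneys, whereas Slc12a3 of the same segment had at least 2705 counts in each.

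Of 10 regulators of the cotransporters 3 were called higher in kidney, 2 lower and 5 were not called. Over all genes tested, 23.7% were called higher and 21.4% lower, so these counts are not read as a result about the regulators. The median log2 difference was 0.04, against 0.08 over all genes tested. The kinase Wnk4 (log2 difference 2.47, adjusted p = 0.000209), the protease hepsin encoded by Hpn, which cleaves uromodulin (2.39, adjusted p = 0.000117), and the kinase Sgk1 (0.74, adjusted p = 0.0379) were higher. Egfr, the receptor of epidermal growth factor, was lower in kidney (-2.47, adjusted p = 0.000103). It stood at 14.0 to 21.0 CPM in the kidneys and at 108 and 89.3 CPM in the Ahnak KO and WT ureters, the reverse of its ligand Egf. Stk39, the kinase that phosphorylates both cotransporters, was lower at -0.37 (adjusted p = 0.0351), and the ubiquitin ligase Nedd4l was not called (-0.16, adjusted p = 0.329 by edgeR). The Stk39 call was lost without any 1 of the 6 libraries, and the Sgk1 call without Ahnak KO kidney 2, WT kidney 1 or either ureter. Under limma on log2(FPKM + 1) and log2(FPKM + 0.1) Stk39 stood at -0.067 and -0.071 (adjusted p = 0.618 and 0.617), and Sgk1 was not called with tissue as the only term (adjusted p = 0.183 by edgeR). The block of shared column numbers called neither (adjusted p = 0.128 for Stk39 and 0.0567 for Sgk1 by edgeR).

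Of 15 transcription factors and cofactors of these segments 14 were called higher in kidney and 0 lower, with a median log2 difference of 3.97. Lhx1 was at least 326-fold higher with 0 counts in both ureters. Tfap2b and Sall3, factors of the distal nephron, had 2617 to 3960 and 405 to 529 counts in the kidneys, 23 and 5 in the Ahnak KO ureter and 0 in the WT ureter. Ppargc1a (2.29, adjusted p = 0.000241) and Emx2 (3.12, adjusted p = 4.34e-05) were among the smallest differences of the set, and both were called. The factor without a call was Pou3f3, which patterns the loop, with 3398 to 4122 counts in the kidneys, 0 in the Ahnak KO ureter and 970 in the WT ureter (adjusted p = 0.0855 by edgeR). Pou3f3 was called higher in kidney by limma on log2(FPKM + 1) and log2(FPKM + 0.1) (adjusted p = 0.00383 and 0.0124) and with either ureter left out. The log2 difference was 1.70 without the Ahnak KO ureter (adjusted p = 0.000902) and 14.66 without the WT ureter (adjusted p = 4.67e-05), the latter a fitted value against 0 counts that depends on the prior count.

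**Figure D2:**
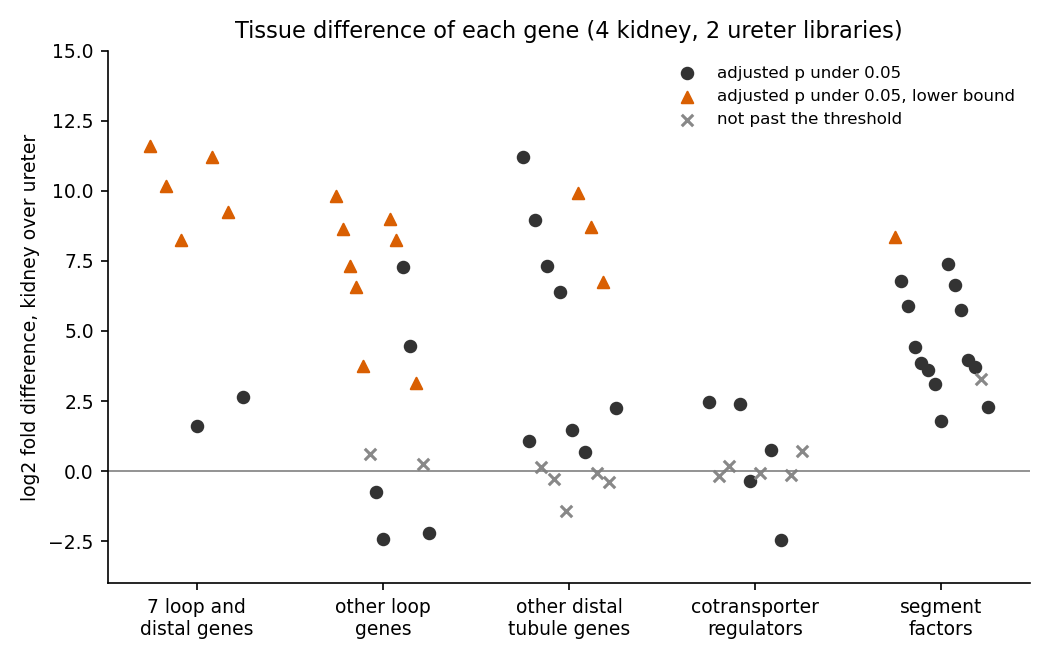
Log2 difference between kidney and ureter of each gene, in the 7 loop and distal genes and 4 sets of related genes; triangles are lower bounds for genes with at most 3 counts in both ureters, and crosses did not pass the threshold. All 7 genes and 14 of 15 segment factors are higher in kidney, while the cotransporter regulators lie on both sides of 0.

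Next, Ahnak KO and WT kidneys were compared, to ask whether the loss of Ahnak changed these genes. None of the 7 was called (edgeR, 16481 genes tested), and none reached an unadjusted p under 0.05. Over all genes 0.0121% were called and 1.38% had an unadjusted p under 0.05. Every adjusted p of the 7 was 1.0. In the order given before, Umod stood at 103, 117, 142 and 101 CPM. WT kidney 1 was the highest and WT kidney 2 the lowest, so the Ahnak KO kidneys lay within the WT range. The log2 difference, Ahnak KO over WT, was -0.14 (SE 0.175, 95% interval -0.57 to 0.29).

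Slc12a1 stood at 317, 278, 270 and 375 CPM, with WT kidney 2 highest and WT kidney 1 lowest, and the Ahnak KO kidneys again lay between them (log2 difference -0.12, SE 0.174, 95% interval -0.54 to 0.31). Bsnd stood at 31.5, 21.7, 35.1 and 32.5 CPM. Both Ahnak KO kidneys lay below both WT kidneys, but by little in Ahnak KO kidney 1. The log2 difference was -0.34 (SE 0.199, 95% interval -0.83 to 0.14), the largest of the 7. It was -0.64 without Ahnak KO kidney 1 and -0.10 without Ahnak KO kidney 2, so most of its size came from the latter library.

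Slc12a3 stood at 69.8, 45.8, 48.8 and 76.1 CPM. The libraries fell in pairs across genotype, Ahnak KO kidney 1 with WT kidney 2 and Ahnak KO kidney 2 with WT kidney 1, and the log2 difference was -0.11 (SE 0.276, 95% interval -0.78 to 0.56). Calb1 showed the opposite order, at 212, 287, 267 and 171 CPM, with a log2 difference of 0.19 (SE 0.239, 95% interval -0.39 to 0.77). Trpm6 followed Calb1, at 5.01, 7.09, 8.35 and 4.10 CPM, with a log2 difference of -0.04 (SE 0.386, 95% interval -0.98 to 0.90). For these 3 genes the groups overlapped, and the interval for Trpm6 admits changes of almost 2-fold in either direction.

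Egf stood at 2.77 and 2.86 CPM in the Ahnak KO kidneys and at 3.13 and 3.22 CPM in the WT kidneys. The groups did not overlap, and the gap was small (log2 difference -0.17, SE 0.295, 95% interval -0.89 to 0.55). Bsnd and Egf, 2 of 7, were the genes with both Ahnak KO kidneys below both WT kidneys, and no gene had both above. Over all genes tested, 13.5% lay below in this way and 12.7% above. With 7 genes, a count of 2 is not read as a result.

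**Figure D3:**
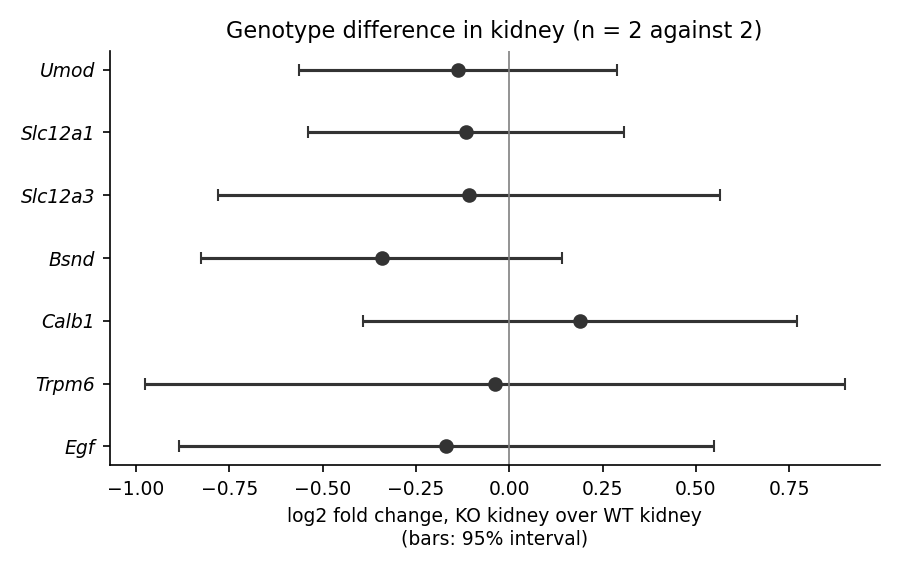
Log2 fold change of the 7 genes, Ahnak KO kidney over WT kidney, from the edgeR fit, with bars for the 95% interval. Every interval includes 0, from the narrow ones of Umod and Slc12a1 to that of Trpm6, which runs from -0.98 to 0.90.

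Single libraries decided the sign of several of these differences. Ahnak KO kidney 1 is the library that differs in sex. Without it the log2 differences were -0.05 for Umod, -0.22 for Slc12a1, -0.64 for Bsnd and -0.45 for Slc12a3. In the same fit they were 0.39 for Calb1, 0.19 for Trpm6 and -0.15 for Egf. Without WT kidney 2 they were -0.36 for Umod, 0.14 for Slc12a1, -0.40 for Bsnd and 0.25 for Slc12a3. That fit gave -0.10 for Calb1, -0.46 for Trpm6 and -0.15 for Egf. Bsnd and Egf were negative whichever kidney library was left out. None of the 7 was called in any of these fits.

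The 7 genes differed in which kidney libraries were high. The ratio of Calb1 to Slc12a3 (TPM over TPM) was 3.50 and 7.21 in Ahnak KO kidneys 1 and 2. In WT kidneys 1 and 2 it was 6.31 and 2.59. It was high in Ahnak KO kidney 2 and WT kidney 1 and low in the other two, and its highest value was 2.78 times its lowest. The ratio of Trpm6 to Slc12a3 spanned 3.18-fold in the same order of high and low libraries. The ratio of Slc12a1 to Slc12a3, by contrast, ranged from 3.22 to 4.31, a span of 1.34-fold. Both cotransporters were higher in Ahnak KO kidney 1 and WT kidney 2. The ratio of Slc12a1 to Egf spanned 1.33-fold without that shared order, so a small span alone does not show that genes moved together. Umod relative to Slc12a1 ranged from 0.477 in WT kidney 2 to 0.928 in WT kidney 1, although both are genes of the thick ascending limb.

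Some other genes of the loop and distal tubule sets, and some genes of other segments, showed the same orders. Trpv5 and Klk1 belong to the distal tubule set above and Slc14a2 to the loop set. The calcium channel Trpv5 of the late distal tubule stood at 9.76, 10.7, 15.5 and 6.89 CPM, and the urea transporter Slc14a2 of the inner medulla and thin limb at 8.15, 21.2, 27.6 and 6.60 CPM. Aqp2 of the collecting duct stood at 303, 354, 375 and 255 CPM. These were higher in Ahnak KO kidney 2 and WT kidney 1, as Calb1 and Trpm6 were. The phosphate transporter Slc34a1 of the proximal tubule stood at 319, 210, 211 and 299 CPM and kallikrein, Klk1, at 52.4, 31.4, 30.5 and 51.4 CPM, in the order of Slc12a3. The summed level of 8 proximal tubule markers was 1811, 1329, 1234 and 1879 CPM. Both orders thus crossed the genotypes. Kcnj1 and Mal of the loop set followed neither order, and how many genes of the sets did was not counted. Trpv5, Slc14a2, Slc34a1, Klk1, Kcnj1 and Mal were singled out here after their values had been seen. The part of these markers in the values of the 7 genes was not tested.

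**Figure D4:**
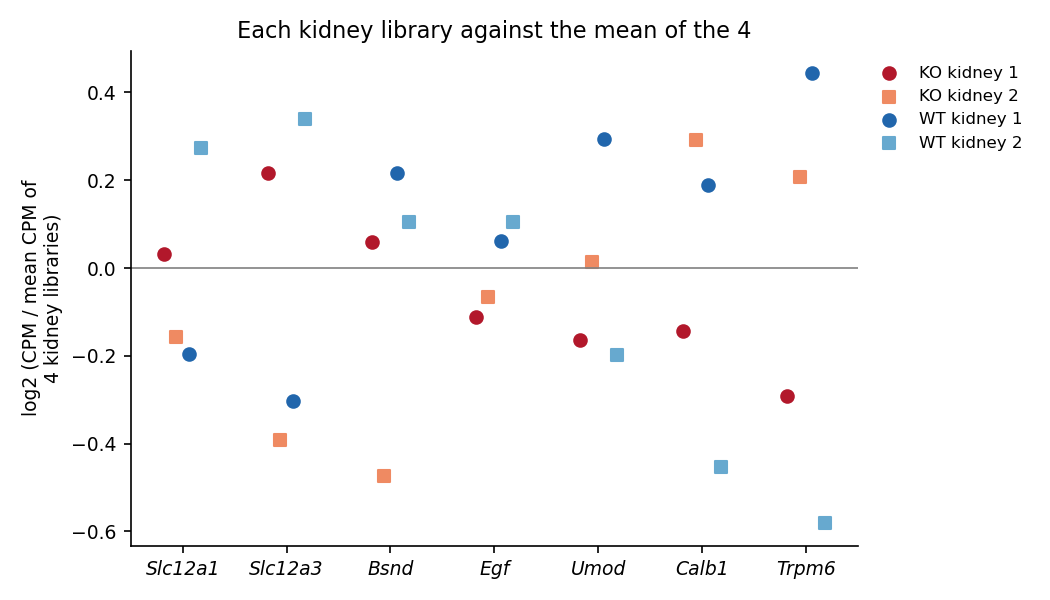
CPM of each gene in the 4 kidney libraries, as the log2 ratio to the mean of the 4; circles and squares are replicates 1 and 2, red tones Ahnak KO and blue tones WT. Ahnak KO kidney 2 and WT kidney 1 lie below 0 for Slc12a1 and Slc12a3 and above 0 for Calb1 and Trpm6, and the genotypes are apart for Bsnd and Egf alone.

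The related gene sets gave no call between Ahnak KO and WT kidneys either. Of 15 loop genes, 16 distal tubule genes, 10 regulators and 15 factors, 0 were called in edgeR, and 1, 0, 1 and 2 of them had an unadjusted p under 0.05. The median log2 differences were -0.06, 0.08, 0.09 and 0.08, against 0.00 over all genes tested. The 4 genes with an unadjusted p under 0.05 were named after their values had been seen. Kcnj1 stood at 34.6 and 31.3 CPM in Ahnak KO against 40.5 and 52.7 CPM in WT (log2 difference -0.50, adjusted p = 1.0 by edgeR). Sgk1, a kinase induced by aldosterone and by cell stress, stood at 186 and 286 CPM in Ahnak KO against 145 and 97.7 CPM in WT (0.96, adjusted p = 1.0 by edgeR). Irx1 stood at 0.43 and Lhx1 at -0.34 (adjusted p = 1.0 for each by edgeR).

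In the ureter there was 1 library per genotype, so no test was made within it. Trpm6 had 26 counts in the Ahnak KO and 56 in the WT ureter, and the ratio of scaled counts, Ahnak KO over WT, was 0.801 (exact Clopper-Pearson 95% interval 0.483 to 1.3). The interval includes 1, and no difference was detectable at this depth. Egf had 39 and 35 counts, a ratio of 1.92 with an interval of 1.19 to 3.13. The intervals compare these libraries and not the genotypes. On the log2(CPM + 0.5) scale the values were -0.20 for Trpm6 and 0.59 for Egf, and neither passed 2-fold, which 5.78% of 16117 genes did downward and 4.44% upward. The 5 genes at 0 in both ureters could show no difference.

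Whether genotype acted differently in the 2 tissues was tested as an interaction over all 6 libraries, with the spread taken from the kidney replicates (edgeR, 17557 genes). The lone ureter libraries are thus assumed to vary as the kidneys do, and no ureter replicate bears on this. For Trpm6 the log2 difference in ureter minus that in kidney was -0.28 (SE 0.781, adjusted p = 0.990) and for Egf 1.11 (SE 0.608, 95% interval -0.39 to 2.61, adjusted p = 0.526). Neither was called, against 0.108% of all genes. Among the 56 related genes Pou3f3 alone passed the threshold in edgeR, on its 0 counts in the Ahnak KO ureter. It did not pass in limma on either FPKM scale. A single library carries that value. The same library held 0 counts of Irx1, Esrrb and Pvalb against 27, 16 and 76 in the WT ureter. Other related genes went the other way. Tfap2b, Kcnj10, Kcnj16 and S100g had 23, 18, 11 and 11 counts in the Ahnak KO ureter and 0 in the WT ureter. These genes were set side by side after their values had been seen.

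The genes with the most similar profile over the 6 libraries were sought among 15481 genes with at least 10 counts in every kidney, by the Euclidean distance of centred log2(CPM + 0.5) values. Among the nearest to the mean profile of the 7 were Aqp4 (distance 0.219), Vwa2 (0.242), Ros1 (0.278) and Lama1 (0.282). The first 3 had 0 counts in both ureters and kidney means of 29.2 to 34.6 CPM, and Lama1 had 55 and 86 counts in the Ahnak KO and WT ureters. Slc12a1 was nearest to Slc34a1 (0.449) and Slc12a3 to Tmem174 (0.335), and both neighbours, like the genes they match, were highest in Ahnak KO kidney 1 and WT kidney 2. Bsnd was nearest to Miox (0.363), which was also lowest in Ahnak KO kidney 2. Calb1 was nearest to Aqp2 (0.578), Trpm6 to Tbx10 (0.370), Umod to Clec18a (0.505) and Egf to Plekha8 (0.160). These likenesses are descriptions over 6 libraries. Genes at 0 in both ureters share the same ureter value, so for them the distance depends in part on how high the kidney level is.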

How the data were processed

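The 7 genes and the related gene sets were chosen with earlier results of these data known. TruSeq Stranded mRNA libraries were sequenced on a HiSeq2500. The processing notes of the submitters list FastQC 0.11.7, Trimmomatic 0.38, HISAT2 2.1.0, StringTie 1.3.4b and build mm10, whereas the methods of the study name Cutadapt, STAR, Cufflinks and GRCm39, and the deposited table carries mm10. The authors deposited, per gene and library, an estimated read count (whole numbers, the way of estimation not given in the sources used here), an FPKM value and a TPM value, with no replicates pooled. Even counts were in excess, so 1 fragment may have been counted as a pair of mates, and the counting intervals are then too narrow. Repeated copies of a gene and antisense genes were not resolved here. The authors' total was 36410246 to 66095616 counts per library.

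The test planned for counts was run on the estimated counts as deposited. Groups followed the source name and treatment labels. Counts were fitted in R 4.3.3 with edgeR 4.0.16 (TMM factors, filterByExpr, glmQLFit and glmQLFTest, Benjamini-Hochberg over all genes tested, threshold 0.05), with genotype for 4 kidney libraries, genotype and tissue for 6, and 4 groups for the interaction. Residual degrees of freedom were 2, 3 and 2, before edgeR shared the spread across genes. The ureter pair was described by log2(CPM + 0.5) and an exact Clopper-Pearson 95% interval. CPM used TMM factors of all 6 libraries. Named genes were the 7, Ahnak, the 3 largest and 3 smallest tissue differences of each related set, genes of those sets called by genotype or interaction, and the nearest profiles. Some genes that this rule takes are not reported here. Alternatives were DESeq2 1.42.0, limma 3.58.1 on log2(FPKM + 1) and log2(FPKM + 0.1), other size factors, filters of 0 or of 10 counts per library, the replicate number as a block, a joint fit of kidneys and ureters, tissue alone, values within genotype and each library left out (a lone library is then assumed to vary like the other groups). The crossed replicate block, the values between kidney and ureter libraries that share column numbers and the fit with these shared numbers as a block were added after seeing the data. The fits were also run on simulated counts. The simulated spread between libraries was set below that estimated from these data, so power here was not measured. Promoter windows came from RefSeq (GRCm38.p6).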

Additional observations from a re-analysis of the deposited data

Results flagged for a closer look

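Egf was lower in both Ahnak KO kidneys than in both WT kidneys (2.77 and 2.86 against 3.13 and 3.22 CPM) and higher in the Ahnak KO ureter than in the WT ureter (1.3 against 0.681 CPM), so the tissues moved in opposite directions. The difference between the tissues was 1.11 on the log2 scale (SE 0.608, adjusted p = 0.526 by edgeR) and was not called. Over 6 alternatives it ranged from 0.19, on the log2(FPKM + 1) scale of limma, to 1.13, and none called it. Mal was also higher in the Ahnak KO ureter, with a difference between the tissues of 0.71 (adjusted p = 0.202 by edgeR). Its genotype difference in kidney was near 0, at -0.04 on the log2 scale (SE 0.094). Mal stood at 173 and 171 CPM in Ahnak KO kidney, 180 and 175 CPM in WT kidney, and 1000.3 and 633 CPM in the Ahnak KO and WT ureters. For Nedd4l the difference between the tissues had the opposite sign, at -0.43 (adjusted p = 0.447 by edgeR). Pou3f3 differed by -12.93, a fitted value that passed the threshold in edgeR and not in limma and that depends on the prior count because the Ahnak KO ureter had 0 counts against 970 in the WT ureter. Each of these ureter values rests on 1 library per genotype, with no ureter replicate to give a spread.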

How the results depend on the processing

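Only 2 residual degrees of freedom, 1 ureter library per genotype and a kidney library that differs in sex limit these comparisons. The 7 genes were called in tissue under every alternative that tested them, except where 1 library was left out (6 to 7 calls, Egf being the gene that lost its call), under the block of shared column numbers (6 called, again without Egf, with 2379 genes higher in kidney over all genes) and where 10 counts were required in every library, which left 2 genes to test (2 called). Under limma on FPKM + 1 and FPKM + 0.1, 6360 and 6557 of all genes were higher in kidney, where Atp2b1 (0.029 and 0.030) and Nedd4l (0.13 and 0.14) changed sign; Nedd4l ranged from -0.37 to 0.062 and Pvalb from -3.02 to 5.54 with 1 library left out. Between genotypes in kidney, 2 genes were lower and 0 higher over all genes; with 1 kidney library left out the counts were 2 to 63 and 1 to 24, the most without Ahnak KO kidney 2. DESeq2 called 19 lower and 25 higher, the filter of 10 counts 1 lower, limma 0, and the fit of all 6 libraries 0. The replicate block called 0 genes. Deviations of same-numbered kidneys from their group means had a weak negative correlation (r = -0.193 over 16481 genes). This value does not settle whether the numbers pair the libraries. The crossed replicate block called 1 lower. None of the 7 was called in any of these. Trpm6 changed sign under limma on FPKM + 0.1 (0.0036), the replicate block (0.026) and the crossed block (0.024), and Egf in the fit of all 6 libraries (0.17). With 1 kidney library left out, the log2 difference ranged from -0.36 to 0.13 for Umod, -0.33 to 0.14 for Slc12a1, -0.45 to 0.25 for Slc12a3, -0.10 to 0.54 for Calb1 and -0.46 to 0.56 for Trpm6. The interaction had 10 genes lower and 9 higher. The filter of 10 counts gave 6 lower, DESeq2 278 lower and 198 higher, limma 0 either way, and single libraries left out 2 to 125 lower and 2 to 145 higher (again the most without Ahnak KO kidney 2), with Trpm6 between -0.87 and 0.15. In the ureter pair, 931 genes were more than 2-fold lower and 715 higher. A pseudocount of 0.1 gave 1638 and 1137, and FPKM 1840 lower. Library size alone moved the median log2 ratio from -0.02 to -0.20 and the share of lower genes among those past 2-fold from 56.6% to 70.7%. The cause of these changes was not tested, except that a filter tests fewer genes.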
